A study of Mus musculus with 13 samples.

Results

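SMC1 sites without RAD21 are places where the SMC1 library of wild-type distal forelimb has a called peak and neither wild-type RAD21 library has one. They were chosen by those measured peaks: merged autosomal SMC1 intervals that overlapped no RAD21 peak by 1 bp or more, either in distal forelimb or in whole limb. Of 22617 autosomal SMC1 intervals, 3925 met the rule, or 17.4%, and the other 18692 overlapped RAD21. The lack of RAD21 is therefore the rule itself and not a finding.

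SMC1 and RAD21 are subunits of cohesin, the ring-shaped complex that holds sister chromatids together and folds interphase chromatin into loops. SMC1 is an ATPase arm of the ring and RAD21 is the kleisin that closes it, so the peaks of both usually lie at the same places. CTCF is the zinc finger protein at which loop extrusion by cohesin pauses, and most cohesin peaks in mammalian cells sit on CTCF motifs. In the developing limb, CTCF and cohesin mark the boundary inside the HoxD gene cluster that separates the regulatory landscapes used in the distal and the proximal limb.

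All samples were mouse limb buds at E12.5. SMC1, RAD21 and CTCF in distal forelimb, and CTCF in proximal forelimb, came from wild-type CD1 embryos. Wild-type RAD21 and CTCF in whole limb came from B6CBAF1 embryos, with forelimbs and hindlimbs together. The same background and tissue were used for CTCF in 3 HoxD deletion alleles, delHoxd(8-13)d11lac, delHoxd(1-13)d9lac and delHoxd(attP-rel5)d9lac, and for RAD21 in delHoxd(8-13)rXII, while CTCF in delHoxd(8-13)rXII was measured in forelimbs alone by ChIPmentation. Each combination was 1 library with no replicate, so no test between libraries was possible: the 95% Wilson intervals given with shares cover counting error only, and antibody, tissue, strain, fixation and library cannot be told apart. Tissue was fixed for 25 minutes for SMC1, for 10 minutes for CTCF and for either time for RAD21, except that the time for the ChIPmentation library was not given in the sources used here. On the autosomes the lists held 16065 RAD21 intervals in distal forelimb and 32465 in whole limb, and 66758, 70418 and 42202 CTCF intervals in distal forelimb, proximal forelimb and whole limb. In bulk tissue a peak in few cells and no peak cannot be told apart below the caller's threshold. Read depth was not given, and the lists hold no RNA or marker measurement by which the dissected tissue could be checked.

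The strongest of these sites that also lacked CTCF turned out to be tandem repeats of the 5 bp unit GACAA. Of the strongest, 2 are shown 5′ to 3′ on the strand that reads GACAA (GRCm38.p6), named by the nearest gene, with the longest uninterrupted run in capitals.
Csrp2, chr10:110911596-110911695, minus strand: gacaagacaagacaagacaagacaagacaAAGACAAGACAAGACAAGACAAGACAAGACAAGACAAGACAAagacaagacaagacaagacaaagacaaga
Zpld1, chr16:55212741-55212840, plus strand: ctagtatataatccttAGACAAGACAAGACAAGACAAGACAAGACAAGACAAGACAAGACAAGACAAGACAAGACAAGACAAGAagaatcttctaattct

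A smaller set held the letters of the REST motif, TCAGCACC and GGACAG with 2 free positions between them. REST is a zinc finger repressor that keeps neuronal genes silent in cells that are not neurons. The strongest lay near Celf4, and the next 4 are shown with the motif in capitals.
Igsf21, chr4:140259119-140259148, minus strand: tcattacTCATCACCATGGACAGagctacc
Mroh5, chr15:74076151-74076180, minus strand: atgcggtTCAGGACCATGGACAGctccctg
Kcnk9, chr15:72689977-72690006, minus strand: gcatgctTCAGCACCACGGAGAGctctctg
Kcnk9, chr15:72568702-72568731, minus strand: aggctccTCAGCACCGTGGACAGcgcctcg

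Most sites, by contrast, carried CTCF. Of the 5 strongest with CTCF in all 3 wild-type lists, 4 are shown with the best CTCF match in capitals.
Fxyd2, chr9:45408497-45408525, minus strand: ccacgGCCACCAGGGGGCACACTGaaaga
Rpl14, chr9:120591676-120591704, minus strand: cagcgGCCACAAGAGGGCAAAGAAttctc
Atp6v1b1, chr6:83731317-83731345, minus strand: ccactTCCACCAGGGGGCGCAGAGgtggt
Gtf3c5, chr2:28585359-28585387, minus strand: ttaccGCCAGCAGATGGAGGGCTTgccca

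CTCF occupied most of the SMC1 sites without RAD21, but fewer of them than of the sites with RAD21. A CTCF peak overlapped 2627 of the 3925 sites in all 3 wild-type lists, 66.9% (65.4 to 68.4), against 89.8% of all SMC1 intervals and 94.6% (94.3 to 94.9) of those with RAD21. No CTCF list had a peak at 830 sites, 21.1% (19.9 to 22.5), against 5.17% of all SMC1 intervals and 1.82% (1.64 to 2.02) of those with RAD21. The remaining 468 sites, 11.9%, had CTCF in 1 or 2 lists, and at 350 of these it was present in distal and proximal forelimb and missing in whole limb. A further 66 had it in proximal forelimb alone, 34 in distal forelimb alone and 7 in whole limb alone. By single list, CTCF was at 76.8% of the sites in distal forelimb, 77.7% in proximal forelimb and 67.4% in whole limb, in the order of the lengths of the lists.

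The 4 deletion alleles gave shares on either side of that of wild-type whole limb. CTCF was at 76.2% of the sites in delHoxd(8-13)d11lac, 68.5% in delHoxd(attP-rel5)d9lac, 66.7% in delHoxd(1-13)d9lac and, in the ChIPmentation library of delHoxd(8-13)rXII, at 2356 of the 3925. Over all SMC1 intervals the shares in the same order were 92.8%, 90.6%, 89.2% and 86.2%, and at sites with RAD21 they were 96.3%, 95.2%, 94.0% and 91.7%. Among the 2627 sites with CTCF in all 3 wild-type lists, these libraries had a peak at 2624, 2523, 2484 and 2249, against 17604, 17524, 17362 and 16911 of the 17682 such sites with RAD21. For the first and the last library these were 99.9% and 85.6% without RAD21, against 99.6% and 95.6% with it. Among the 830 without CTCF in wild type, they had a peak at 3.73%, 0.602%, 0.12% and 1.93%, against 5.0%, 2.94%, 3.53% and 5.59% of the 340 sites with RAD21 and no CTCF.

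RAD21 in delHoxd(8-13)rXII, a library that the rule did not use, was called at 36 of the 3925 sites, 0.917% (0.663 to 1.27). It was called at 59.0% of all SMC1 intervals and at 71.2% (70.6 to 71.9) of those with wild-type RAD21. As the sites were chosen by peaks of the same protein, this contrast is not independent of the rule. The list of this library held 15549 autosomal intervals, and the shares were not compared at like SMC1 strength. Of the 36, 29 had CTCF in all 3 wild-type lists, 7 had it in 1 or 2 and none of the 830 sites without CTCF was among them. The strongest SMC1 site of the 36 lay 20256 bp from the start of Rpl14, with an SMC1 −log10 q of 41 and a RAD21 −log10 q of 3.43 in the allele. Others lay near Rptn, Myl3, Faim and the promoter of Cdkn2b, which encodes a cyclin-dependent kinase inhibitor, with RAD21 −log10 q of 5.44, 3.71, 6.65 and 2.08.

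**Figure D1:**
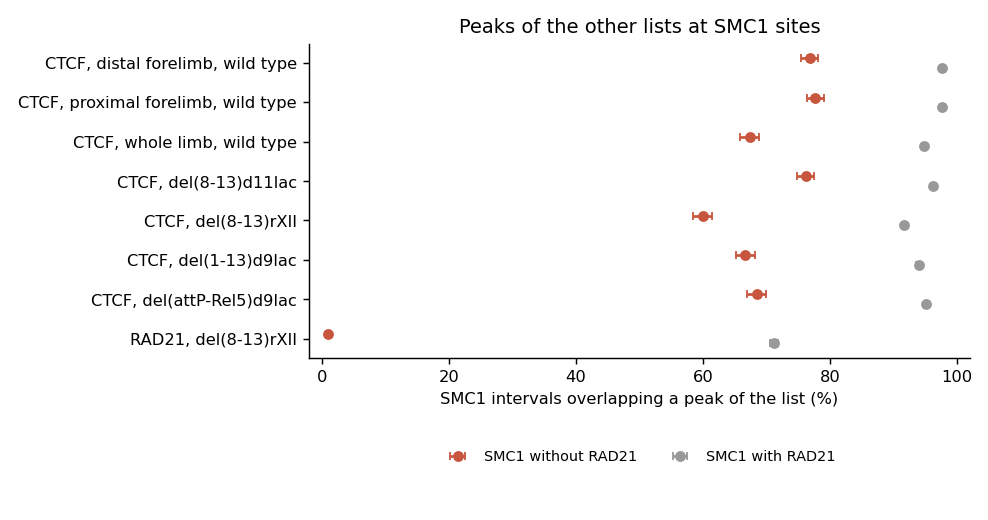
Share of SMC1 intervals that overlap a peak of each list (x axis, %), for the 3925 sites without RAD21 and the 18692 with RAD21; bars are 95% Wilson intervals and each list is 1 library. The sites without RAD21 reach at most 77.7% in the CTCF lists and 0.917% for RAD21 in delHoxd(8-13)rXII, below the sites with RAD21 in each list. The RAD21 contrast is not independent of the rule that chose the sites.

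The sites were weak SMC1 peaks with some exceptions. SMC1 strength, the −log10 q that the peak caller gave, ran from 1.31 to 235 with a median of 5.07, against a median of 13.8 at sites with RAD21. When all SMC1 intervals were put in order of strength and cut into 10 bins of equal size, 50.1% of the weakest bin lacked RAD21 and 0.928% of the strongest, a fall at every step. CTCF did not follow the same course. Among sites without RAD21, the share with no CTCF was 39.2% in the weakest bin, 7.03% in the fifth and 66.7% in the strongest, where 14 of 21 sites had none. Among sites with RAD21 it fell from 14.3% in the weakest bin to 0 of 2241 in the strongest.

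At like SMC1 strength the shares with CTCF still differed. CTCF in all 3 lists was at 44.8% of the sites without RAD21 against 68.4% of those with RAD21 in the weakest bin, at 86.9% against 97.5% in the fifth and at 79.4% against 99.6% in the eighth. The strongest 2 bins, with 38 and 21 sites, had it at 60.5% and 28.6%, against 99.8% and 99.9%.

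**Figure D2:**
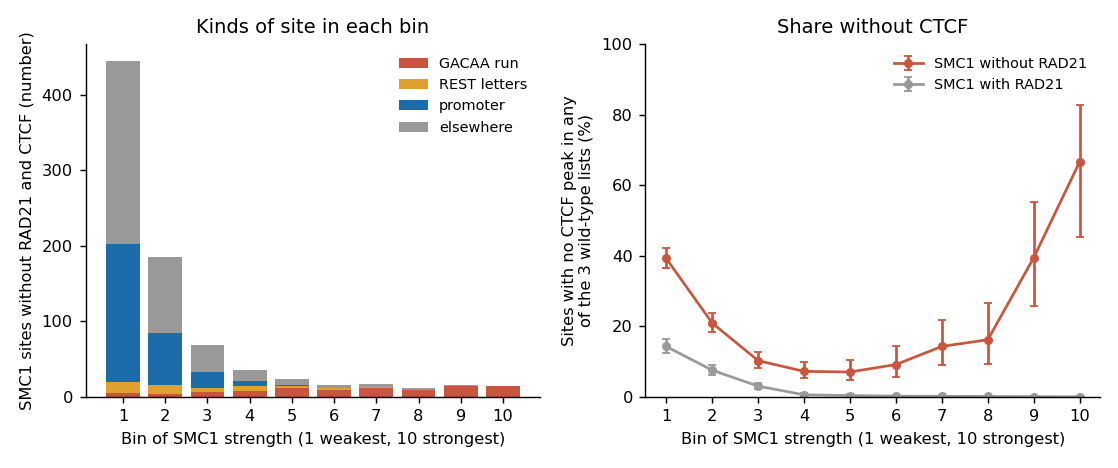
Left, number of SMC1 sites without RAD21 and CTCF (y axis) in 10 equal bins of SMC1 −log10 q (x axis), by kind of site; right, share of sites with no CTCF in any of 3 wild-type lists (y axis, %), with 95% Wilson intervals, for sites without and with RAD21. The share without CTCF is lowest at 7.03% in the fifth bin and rises to 66.7% in the strongest, where the sites are GACAA runs, while with RAD21 it goes from 14.3% to 0.

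Where CTCF was present, its peaks were weaker than at sites with RAD21, but this was not compared at like SMC1 strength. With CTCF in all 3 lists, the median SMC1 −log10 q was 5.81 at sites without RAD21 and 14.6 at sites with it. At the 2627 sites with CTCF in all 3 lists, the median CTCF −log10 q was 82.3 in distal forelimb, 76.5 in proximal forelimb and 21.6 in whole limb. At the 17682 such sites with RAD21 the medians were 135, 133 and 42.7. Within its own list the median CTCF peak stood at percentile 73.5, 74.1 and 56.0, against 84.7, 85.6 and 75.5 with RAD21. The CTCF summit in distal forelimb lay a median of 22 bp from the SMC1 summit, against 14 bp, and within 50 bp at 85.2% against 93.9%. A CTCF motif was found within 50 bp of the SMC1 summit at 85.2% (83.8 to 86.5) of these sites and at 90.5% (90.1 to 90.9) of their counterparts with RAD21, at a score that 5% of windows 2 kb away passed. The motif was on the plus strand at 1097 and on the minus strand at 1142 of the sites. Over all 3925 sites the motif share was 64.2%, and over the 830 without CTCF it was 5.54%, near the level of the control windows.

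The 10 strongest sites with CTCF in all 3 lists had an SMC1 −log10 q of 29.8 to 44.3, at percentiles of 86.3 to 95.4 in the SMC1 list. The first lay in a UTR near the start of Fxyd2, the gamma subunit of the sodium-potassium ATPase, with an SMC1 −log10 q of 44.3. Its CTCF −log10 q was 117, 104 and 23.8 in distal forelimb, proximal forelimb and whole limb. The intergenic site near Rpl14, a ribosomal protein gene, had 41 for SMC1 and 152, 164 and 56.2 for CTCF. The site in an intron near Atp6v1b1, a subunit of the vacuolar proton pump, had 40.1 for SMC1 and 154, 138 and 54 for CTCF. The site 2083 bp from the start of Gtf3c5, a subunit of the RNA polymerase III factor TFIIIC, had 39.7 for SMC1 and the strongest CTCF of the 10, at 265, 291 and 132. The CTCF peaks at these sites passed the median −log10 q of their lists, 24.3, 20.3 and 17.3 in the same order. By the rule no wild-type RAD21 peak was called there, while the Rpl14 site had one in delHoxd(8-13)rXII.
Promoters of Mmgt2, a magnesium transporter gene, and Olfm1, a secreted olfactomedin gene, were also among the 10, with summits 45 bp and 147 bp from the start. The nearest RAD21 peak was 26601 bp from the first and 602 bp from the second.

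The 830 sites with neither RAD21 nor CTCF fell into 4 kinds. A GACAA run of at least 5 copies was in 91, a REST motif of at least 13 of its 14 letters in 45, another 283 were at promoters and 411 were elsewhere. Their SMC1 strength differed by kind: the median −log10 q was 15.2 for GACAA runs, 4.69 for REST letters, 3.01 at promoters and 3.19 elsewhere. GACAA sites were the single kind whose median passed that of sites with RAD21, 13.8. All 28 sites without RAD21 and CTCF at a −log10 q of 25 or more held a GACAA run, as did 35 of 38 at 20 or more and 64 of 82 at 10 or more.

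**Figure D3:**
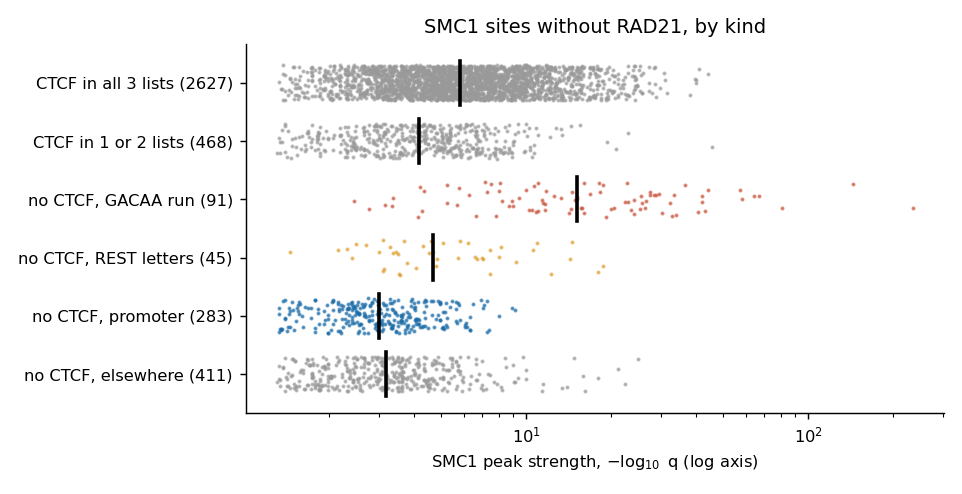
SMC1 −log10 q (x axis, log scale) of the 3925 SMC1 sites without RAD21, by kind; each point is a site, placed with random vertical spread, the black bar is the median and the number of sites is in parentheses. GACAA runs have a median of 15.2 and reach 235, while promoters without CTCF stay at or below 9.11.

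GACAA runs were nearly confined to these sites among all SMC1 intervals, but the unit was picked from the sequences of these same sites. Of 95 SMC1 intervals with a run of at least 5 copies, 91 had neither RAD21 nor CTCF, 2 had CTCF alone and 2 had RAD21. That is 2 of 18692 intervals with RAD21, and none of 22617 windows of 200 bp placed 2 kb from the summits held such a run. The 91 sites had 5 to 19 copies in the longest uninterrupted run, with a median of 11, and the SMC1 summit lay inside that run at 68 of them (74.7%) and within 50 bp of it at 87. Of the 91, 60 were intergenic, 31 were in introns and none was within 1 kb of a protein-coding start. The median distance to a start was 60936 bp, against 15508 bp for all the sites.

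The strongest site, 8202 bp from the start of Csrp2, a LIM domain protein gene, had an SMC1 −log10 q of 235 and a fold enrichment of 18.6, above 99.9% of the SMC1 list. Its longest uninterrupted run was 42 bp, but the locus held 6 runs that came to 209 bp in all, a part of which is in the sequence above. The site 70433 bp from Zpld1, which encodes a zona pellucida-like domain protein, had a −log10 q of 67.2 and a run of 68 bp. Further strong GACAA sites lay in introns, with Kcnq3 (64.3), Adgrb3 (57.2) and B3galt1 (43.2) as nearest genes, and between genes near Ociad2 (58.5), Acvr2a (44.3) and Nr2f2 (42). The nearest RAD21 peak to the 10 strongest sites was 3894 bp to 144479 bp away.

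All GACAA runs of the autosomes were then located, whether or not SMC1 was there. There were 181 uninterrupted runs of at least 25 bp, at 171 loci once runs within 200 bp were joined. SMC1 was called at 95 of the 171 loci, 55.6% (48.1 to 62.8). The share went up with the longest run: 5 of 40 loci for 25 to 34 bp, 19 of 39 for 35 to 44 bp (48.7%), 20 of 34 for 45 to 54 bp (58.8%), 33 of 40 for 55 to 64 bp (82.5%) and 18 of 18 for 65 to 98 bp. The strength of the SMC1 peak went the same way, with medians of 5.77, 10.0, 14.5, 22.8 and 25.1 in the same order. Over the 95 loci, Spearman's rho between the longest run and the −log10 q was 0.39, as a description of 1 library. RAD21 was called at 0 of the 171 loci in distal forelimb, at 1 in whole limb and at 0 in delHoxd(8-13)rXII. The unit was noticed at sites chosen for SMC1 without RAD21, so the lack of RAD21 at loci with SMC1 is not independent of that choice. CTCF was called at 3 loci in distal forelimb, 2 in proximal forelimb and 0 in whole limb. Of the 95 loci with SMC1, 2 had a peak in any of the other 10 lists.

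**Figure D4:**
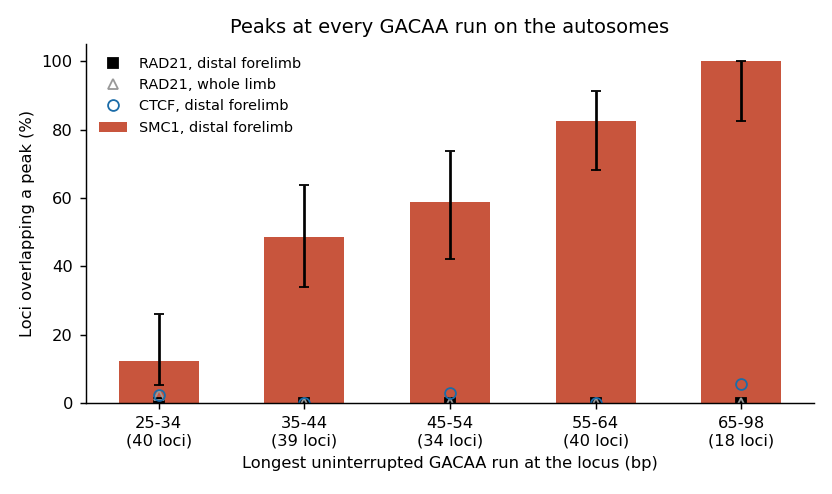
Share of the 171 autosomal GACAA loci that overlap a peak (y axis, %) by the longest uninterrupted run (x axis, bp, number of loci below), as bars with 95% Wilson intervals for SMC1 and as markers for RAD21 and CTCF. SMC1 goes from 5 of 40 loci to 18 of 18 with run length, while RAD21 and CTCF stay at or near 0 in each class. The unit was noticed at sites chosen for SMC1 without RAD21.

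Tandem repeats of other units of 1 to 6 bp showed this pattern at a far lower share of their runs. GACAA was picked from the sequences of SMC1 sites without RAD21, so this comparison is not independent of that choice. Of 691518 runs of other units of 1 to 6 bp and at least 25 bp, 0.268% overlapped an SMC1 interval, and 0.0583% did so without a RAD21 peak, against 104 of the 181 GACAA runs (57.5%). Among other 5 bp units the shares were 0.488% and 0.141%, and for runs of at least 50 bp 0.379% and 0.133%. Of 131 units with at least 50 runs, the telomere-like unit AACCCT alone had a higher SMC1 share, 67.5% of 372 runs, but there whole-limb RAD21 was at 76.1% and distal CTCF at 67.5%, and 2 of its 251 runs with SMC1 lacked RAD21. The next were ACAGC with 13.6% of 594 runs, where 1 run with SMC1 lacked RAD21, and AAGGC with 8 of 93 runs. None of these 8 AAGGC runs had RAD21, which in whole limb was called at 8 other AAGGC runs. Of 1202 ACACAG runs 57 had SMC1, and 15 of those lacked RAD21. Reads were 50 bp and single-end; how reads that map to several places were treated is not given in the sources used here, and the part of repeat mapping or of the antibody in the SMC1 signal at GACAA runs was not tested.

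REST letters marked the second set, and they too were noticed in the sequences of the sites. Of the 830 sites without RAD21 and CTCF, 45 (5.42%, 4.08 to 7.18) held at least 13 of the 14 letters within 100 bp of the summit. The same was true of 6 of 340 SMC1 intervals with RAD21 and no CTCF (1.76%, 0.811 to 3.8), of 0.114% of the sites with CTCF in all 3 lists and of 5 of 22617 control windows (0.0221%). Of the 45, 20 held all 14 letters, 18 lay in introns, 20 between genes and 6 at promoters. Their sequence was largely free of annotated repeats, with a median of 0% soft-masked bases, against 61.8% at GACAA sites. The strongest, in an intron 85445 bp from the start of Celf4, a neuronal RNA-binding protein gene, had an SMC1 −log10 q of 18.7. The site 12360 bp from Igsf21, which encodes a synaptic adhesion protein, had 18, and the site 236447 bp from Mroh5 had 14.5. The 2 sites near Kcnk9, a potassium channel gene, had 14.3 and 12.3. Next came sites near Matn1 (10.9), Smim17 (10.6), Vstm2l (9.22), Zfp608 (8.12) and Xylt1 (7.99). Their distances to the start were 171062, 4902, 1179, 191033 and 255948 bp in the same order. Whether the genes nearest to REST sites were more often neuronal than other genes was not tested. The site at the promoter of Vwc2l, with its summit 72 bp from the start, held all 14 letters and had 6.97.

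Across the autosomes most places with the REST letters had no SMC1 peak. Of 371 places with all 14 letters, 35 overlapped an SMC1 interval (9.43%, 6.86 to 12.8), 24 of them without RAD21 and 22 with neither RAD21 nor CTCF. Of 2035 further places with exactly 13 letters, 70 did (3.44%, 2.73 to 4.32), 53 without RAD21 and 47 with neither. RAD21 was at 14 of the 371 (3.77%) and CTCF at 21 (5.66%). The files hold no REST measurement, so whether REST was bound at these places was not tested.

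Promoters made up 17.1% (15.9 to 18.3) of the SMC1 sites without RAD21, 670 of 3925, against 10.9% of all SMC1 intervals and 9.59% (9.18 to 10.0) of those with RAD21. These shares were not compared at like SMC1 strength. At the 554 sites with an SMC1 −log10 q of at least 10, the promoter share was 11.9% (9.47 to 14.9). A promoter here is a summit within 1 kb of a protein-coding transcription start. The share followed the absence of CTCF: 34.8% (31.7 to 38.1) of the 830 sites without CTCF were at promoters, against 12.3% of the sites with CTCF in all 3 lists. Sites with RAD21 and no CTCF had a higher share still, 49.7% (44.4 to 55.0) of 340. At the 289 promoters without CTCF and RAD21, the median G+C content around the summit was 60.5% and 36 had starts of different genes on both strands within 1 kb, against 12 of 322 (3.73%) of the promoters with CTCF in all 3 lists. Promoters with RAD21 and no CTCF had a median G+C content of 63.5% and starts on both strands at 22 of 169 (13.0%). The promoters without CTCF and RAD21 were all weak: the strongest were the promoters of Tnr, the brain matrix protein tenascin-R (9.11), Cenpu, a centromere protein (8.89), Dmap1, a partner of the DNA methyltransferase Dnmt1 (8.01), and Zscan26 (7.41). Next came Ighmbp2, a helicase gene (7.27), Acsf3 (7.24), Gnb2, a G protein subunit (7.08), and Lpgat1 (7.03). The nearest RAD21 peak was 213 bp from the Tnr site and 4161 bp to 98756 bp from the other sites named. The letters CCGGAAGT of the ETS motif were within 100 bp of the summit at 4.84% of the 289 promoters, on either strand. They were within 100 bp of 1 start per gene at 3.63% of 20698 protein-coding genes. That start was the one of lowest coordinate, so these windows were placed otherwise than those on summits. GGGCGG, bound by SP and KLF factors, was at 25.3% against 35.6%, and TGACGTCA, the cyclic AMP response element, was at 0 of 289, with an upper Wilson limit of 1.31%, against 1.67%. At promoters with RAD21 and no CTCF, CCGGAAGT was at 1.78%, GGGCGG at 33.1% and TGACGTCA likewise at 0 of 169.

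**Figure D5:**
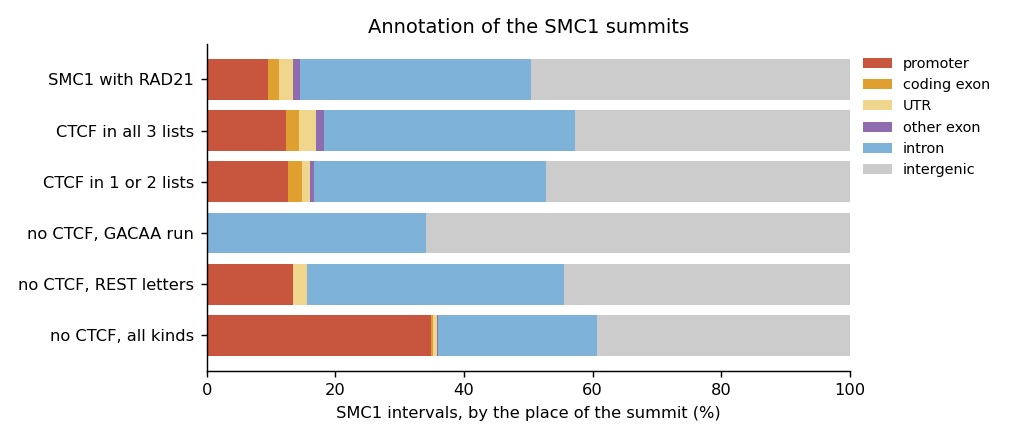
Place of the SMC1 summit in GENCODE gene models (x axis, share of intervals in %), for SMC1 intervals with RAD21 and for classes of the sites without RAD21. Promoters are 9.59% with RAD21, 12.3% of sites with CTCF in all 3 lists, 34.8% of sites without CTCF and 0 of the 91 GACAA sites.

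The 411 sites without CTCF that were neither promoters nor held GACAA or REST letters were weak as a group, with a median −log10 q of 3.19, and 246 were intergenic and 157 intronic. Other tandem repeats stood out among them. At 41 (9.98%, 7.44 to 13.3) the 200 bp around the summit matched itself at 80% or more of its positions when moved by 2 to 60 bp, against 0.402% of windows 2 kb away. Over all 830 sites without RAD21 and CTCF the share was 5.06% (3.77 to 6.77), against 10.9% (8.0 to 14.6) of the 340 SMC1 intervals with RAD21 and no CTCF. Of the strongest such sites, 3 are shown on the plus strand, centred on the summit, with a stretch as long as the best-matching move in capitals.
Ifngr1, chr10:19514629-19514718: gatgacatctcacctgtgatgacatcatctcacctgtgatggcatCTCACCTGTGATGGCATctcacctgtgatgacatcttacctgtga
Unc5d, chr8:28527537-28527626: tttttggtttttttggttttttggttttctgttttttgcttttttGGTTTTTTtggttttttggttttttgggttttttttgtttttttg
Phxr2, chr10:99171024-99171113: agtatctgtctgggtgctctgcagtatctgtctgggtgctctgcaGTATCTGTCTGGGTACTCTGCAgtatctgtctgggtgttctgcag

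The moves were 17, 8 and 22 bp, and the SMC1 −log10 q at these sites was 22.5, 18 and 16.2. The unit at Unc5d, read on the other strand, was AAAAAACC. At least 3 exact copies of it in tandem were in 10 of the 411 sites, in 1 of the other 3514 sites without RAD21 and in 1 of 18692 intervals with RAD21.

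Within 1 Mb of the HoxD cluster, measured from Evx2 and Hoxd1, there were 6 of the sites, 4 with CTCF in all 3 lists and 2 without CTCF. The site inside the cluster lay 4172 bp from the start of Hoxd11, in an exon of a protein-coding gene outside coding sequence and UTRs. It was a weak SMC1 peak with a −log10 q of 3.47. Its CTCF peaks were strong, at 182, 165 and 56.8 in distal forelimb, proximal forelimb and whole limb, and the nearest RAD21 peak lay 5028 bp away. Of the others with CTCF, the site 325308 bp from the start of Mtx2 had the strongest SMC1 of the 6, at 15.5, with a RAD21 peak 1207 bp away, and those near Hnrnpa3 had 6.27 and 3.53. The sites without CTCF lay in the gene-poor landscape on the side of Lnpk and Atp5g3, with 8.2 and 3.57. The first of these held a GACAA run of 39 bp, 94185 bp from the start of Lnpk and 94457 bp from the nearest RAD21 peak. Both the Hoxd11 motif and this run are shown, with the motif or run in capitals.
Hoxd11, chr2:74686474-74686502, plus strand: ctacaGCCACACGAGGGCGCGCTCatgtt
Lnpk, chr2:74484000-74484099, plus strand: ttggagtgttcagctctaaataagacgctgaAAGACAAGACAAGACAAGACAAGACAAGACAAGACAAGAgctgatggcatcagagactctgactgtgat

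Of 20698 autosomal protein-coding genes, 1957 (9.46%) had a site within 10 kb of a start and 719 (3.47%) within 1 kb. The gene lists were small, and neighbouring genes can share a site. Chondrogenesis genes had a site within 10 kb at 6 of 18, among them Matn4, a cartilage matrix protein (SMC1 −log10 q of 10.7, CTCF in all 3 lists), the cartilage transcription factor Sox5 (8.01, CTCF in 1 list) and its partner Sox6 (3.45, no CTCF). The Matn4 site lay 1542 bp from the start of Matn4 but 124 bp from that of Rbpjl. Of 30 genes of distal limb patterning 3 had a site, all 3 beyond 1 kb: Fgf8, the growth factor of the apical ridge (12.7, CTCF in all 3 lists), Dlx5 (8.4, CTCF in 2 lists) and Sp8 (1.45, no CTCF). Of 13 genes of proximal patterning Irx5 had a site (3.85), and none of 6 limb identity genes had. An SMC1 site with RAD21 was within 10 kb of 13 of the 18 chondrogenesis genes (72.2%), 17 of the 30 distal genes (56.7%) and 10 of the 13 proximal genes (76.9%), against 30.2% of all genes. HoxA, HoxB and HoxC genes had a site at 7 of 31 (18 of 31 had one with RAD21), with 11.7 for the site that Hoxb5, Hoxb6 and Hoxb7 share and 5.96 near Hoxa11, both with CTCF in all 3 lists. In the HoxD list, 2 of 17 genes had a site, Hoxd10 and Hoxd11, which share the site described above.

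Ribosomal protein genes had a site within 10 kb at 15 of 74 (20.3%), mitochondrial ribosomal protein genes at 15 of 78 (19.2%) and housekeeping genes at 4 of 14 (28.6%), the last including Actb, Polr2a and Ywhaz. At Actb the site lay 45 bp from the start with a −log10 q of 8.14 and CTCF in all 3 lists, while at Polr2a and Ywhaz it had no CTCF (4.06 and 1.34). The shares of these lists within 10 kb of an SMC1 site with RAD21 were 44.6%, 44.9% and 35.7%. Hist1 histone genes had a site at 8 of 54, imprinted genes at 4 of 17 and genes of the cohesin and CTCF machinery at 1 of 17, Cdca5 (3.01), which encodes the cohesin protector sororin. The Cdca5 site had no CTCF and lay 7705 bp from the start of Cdca5, at the promoter of another gene. An SMC1 site with RAD21 was within 10 kb of 31.5%, 47.1% and 29.4% of these lists. The 56 clustered protocadherin genes and the 11 endothelial genes had none within 10 kb, against 9 and 4 with an SMC1 site with RAD21.
Among markers of other cell types in the limb, muscle genes had a site at 2 of 14, with 20.1 at 740 bp from the start of the myogenic factor Myod1. Neural genes had one at 2 of 9, with 12.3 near Foxd3 and 8.36 at Erbb3, both genes of neural crest and Schwann cells. Blood genes had one at 1 of 11 (Epor, 4.24), ectoderm genes at 1 of 10 (Krt14, 10.0) and immediate early and stress genes at 1 of 18 (Hspa1b, 11.4). All of these had CTCF in all 3 lists save Epor, with CTCF in 2, and Pax3 of the muscle list (2.44), also with CTCF in 2. In the same order the shares were 14.3%, 22.2%, 9.09%, 10% and 5.56%, against 9.46% of all genes. For SMC1 sites with RAD21 they were 28.6%, 22.2%, 36.4%, 30% and 61.1%, against 30.2% of all genes.

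Distance to RAD21 set the edge of the rule. The nearest wild-type RAD21 peak lay a median of 13294 bp away, within 1 kb of 391 sites (9.96%) and within 100 bp of 101. The sites just inside the rule had a RAD21 peak 0 to 4 bp away, near Asb1, Smim15, Gcnt1, Cemip2 and Ubash3b, with an SMC1 −log10 q of 1.72 to 5.78. The intervals just outside overlapped a RAD21 peak by 1 to 5 bp, near Npvf, Pak4, P4ha1, Plekha5 and Ets1, with 1.37 to 16. By chromosome, the sites made up 15.2% of the SMC1 intervals on chromosome 3, the lowest, to 19.6% on chromosome 5, the highest.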

How the data were processed

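ChIP-seq peak lists of 11 samples of the series were used, and the 2 H3K27ac samples were not analysed here. Per the submitters' processing notes, cutadapt, Bowtie2 and MACS2 were used with mm10; versions, input control, filters and the treatment of reads that map to several places are not given in the sources used here. The deposited lists give for each peak a score, a fold enrichment (ratio) over the local background, and −log10 p and −log10 q values, all computed by the authors; the lowest −log10 q was 1.3. Depth is unknown, and intervals cover counting error only.

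Overlapping rows were merged on autosomes 1 to 19, keeping the strongest summit, and an overlap of at least 1 bp counted as shared. Genes were from GENCODE release M21 and sequence from RefSeq GRCm38.p6; coordinates are 1-based. A CTCF matrix of 19 positions was learnt from the 2000 strongest whole-limb CTCF summits and passed at 7.13 bits. Python 3.11.15, numpy 2.4.6, pandas 2.3.3, scipy 1.17.1, pysam 0.24.0 and samtools 1.23.1 were used. The overlap, repeat and motif steps were tested on simulated data.

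The sites and gene lists were chosen with earlier results of these data known, and GACAA, REST and other repeats were noticed in the sequences of the sites and defined afterwards. Named sites are the 10 strongest with CTCF in all 3 lists, at promoters without CTCF and away from promoters without CTCF, those within 1 Mb of HoxD, 5 on each side of the rule and up to 4 genes per list, passing over predicted genes; the 10 strongest REST sites and sites with RAD21 in delHoxd(8-13)rXII, GACAA windows of 100 bp and the repeat windows of 90 bp were added after the data were seen. Alternatives changed the SMC1 and CTCF thresholds, the overlap rule, the RAD21 lists, the promoter window and the motif score. Some sites, genes and sequences that the rule names are not reported here.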

Additional observations from a re-analysis of the deposited data

How the results depend on the processing

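Of 56 values recomputed under other settings, 26 stayed within the interval of the value given or within 1.5 times the count, and 30 moved. The number of SMC1 sites without RAD21 was 554 with an SMC1 −log10 q of at least 10 and 8426 when the distal forelimb RAD21 list alone had to lack a peak. CTCF in all 3 lists, in at least 1 and in none then made up 81.8%, 85.2% and 14.8% of the sites at that SMC1 threshold and 76.9%, 87.0% and 13.0% with the distal forelimb RAD21 list alone. With no RAD21 peak within 1 kb they made up 68.9%, 80.1% and 19.9%, and with a CTCF −log10 q of at least 10 they made up 54.4%, 75.3% and 24.7%. With a CTCF summit within 200 bp the shares were 65.2%, 76.6% and 23.4%, and with CTCF within 1 kb they were 71.1%, 82.9% and 17.1%. With CTCF over at least 50% of the interval, those in at least 1 and in none were 77.3% and 22.7%. The share with RAD21 in delHoxd(8-13)rXII was 1.99% at an SMC1 −log10 q of at least 10. The promoter share was 11.9% at that threshold, 15.3% with no RAD21 within 1 kb, 13.0% within 500 bp of a start and 21.2% within 2 kb. The share with a CTCF motif was 69.0% within 100 bp and 52.8% at the score that 1% of control windows pass. In alternatives chosen after seeing the data, 91 sites without CTCF held a GACAA run at 4 copies and 77 at 8 copies, and 56 held REST letters at 12 of 14 and 20 at 14 of 14. The cause of these moves was not tested.

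No paired analysis was possible because each group had 1 library and the values come from no test. The absence of a RAD21 peak depends on the depth and threshold of the RAD21 libraries: the whole-limb list is longer than the distal forelimb list and comes from another strain and more tissue, and neither depth is known. No replicate of SMC1 was analysed, so every result on these sites, the GACAA runs included, rests on 1 library and 1 antibody.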
